A study of Drosophila melanogaster with 837 samples.

Results

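Serpent (srp) and GATAe are 2 of the 8862 genes measured in the data set, and both encode transcription factors with GATA zinc fingers. They were chosen by name, as the GATA genes known for the blood and fat body lineages and for the endoderm of the fly, and were followed in every cell that had at least 500 genes with 10 or more reads. The cells came from Drosophila melanogaster embryos of 19 to 20 h that carried Mhc-TAU-GFP, a fluorescent label of cells expressing Myosin heavy chain (Mhc), and GFP-positive, DRAQ5-positive and DAPI-negative cells were sorted singly into 96-well plates as somatic muscle. DRAQ5 stains DNA and DAPI enters damaged cells, so this gate keeps intact nucleated cells. Full-length cDNA was made from each cell by Smart-seq2, with primers added to raise the yield of Hox genes. The labels put all cells in 1 group without naming an animal, a culture, a mutant or a treatment. Of the cells given, 96.7% met the gene limit, and these lay on 15 plates with 40 to 66 cells each and a mean of 53.9.

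GATA factors bind short DNA motifs built around the letters GATA and often work with a Friend-of-GATA partner, which in the fly is u-shaped (ush). In the fly embryo, srp is required to form blood cells (hemocytes) and the fat body and acts early in the endoderm, where it switches on GATAe. GATAe then remains in the midgut, where it keeps genes of the mature gut and of its progenitors active. Another GATA gene, pannier (pnr), is known from the dorsal epidermis and the heart-forming mesoderm.

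srp, GATAe and pnr are neighbours. On the BDGP6 assembly, srp (FBgn0003507) lies on the plus strand of chromosome arm 3R from 15986152 to 16004085, GATAe (FBgn0038391) from 16009105 to 16019133 and pnr (FBgn0003117) from 16026079 to 16041796, all in the same orientation. The gap between srp and GATAe is 5019 bp and holds an antisense long non-coding RNA and a transposon fragment but no protein-coding gene. The gap between GATAe and pnr is 6945 bp. The files hold 6 srp transcripts and 3 GATAe transcripts. srp-RA and srp-RB begin at a proximal first exon, and srp-RD, srp-RE and srp-RG at a distal one 7988 bp upstream. srp-RF begins between these exons and shares the second exon of the distal transcripts. A second long non-coding RNA, lncRNA:CR44133, runs on the same strand over the distal srp exons (15986181 to 15993665). Its transcript is not among those counted, so reads from it could not be told apart from reads of distal srp transcripts.

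**Figure D1:**
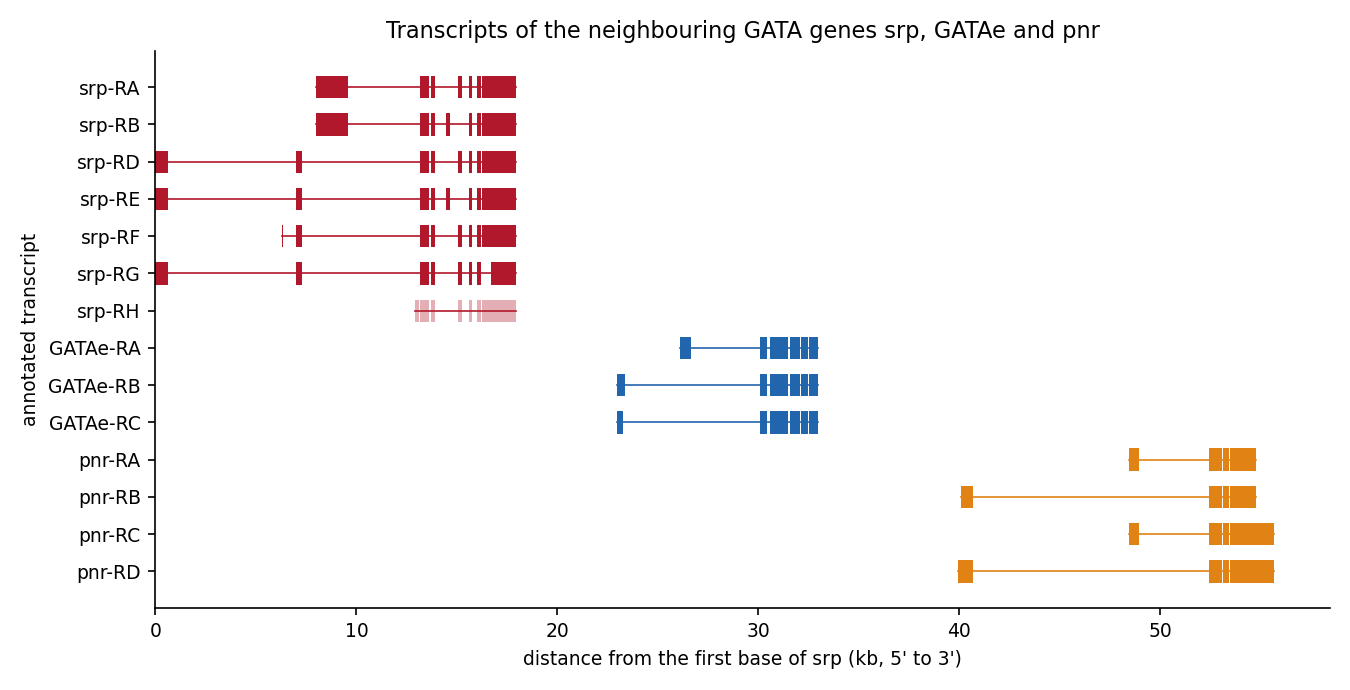
Annotated transcripts of srp (red), GATAe (blue) and pnr (orange), drawn to scale in kb from the first base of srp. Boxes are exons and lines are introns; srp-RH, drawn pale, is annotated but was not among the transcripts counted. The 5019 bp between srp and GATAe and the 6945 bp between GATAe and pnr hold no exon of the genes drawn.

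A limit of 10 reads was set for calling a gene detected in a cell, and the words srp cell and GATAe cell are used in this sense. The cells that passed had between 98988 and 6870936 estimated reads, with a median of 772246. Ranges in parentheses after a share are exact Clopper-Pearson 95% intervals. Where a count is 0, the limit given is instead that of 3 counts over the number of cells. Both cover counting error over cells only and measure no spread between animals. PCR reads without molecular identifiers are also not independent molecules. All cells form 1 sample, so the plate served as a technical unit and no p-value was computed. RNA of Mhc, the gene that the sort label stands for, reached 10 reads in 13.5% of cells (11.2 to 16.02). The sort itself read GFP fluorescence and not Mhc RNA. Plate 17 stood apart, with Mhc in 32 of its 61 cells, against 1 to 9 Mhc cells (median 6) on each of the other plates. The main shares in Mhc cells are therefore given with and without plate 17.

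Most of these cells had srp, and a minority had GATAe. srp was detected in 560 cells (69.2%, 65.9 to 72.4). The share per plate ran from 47.5% on plate 9 over a median of 69.4% to 83.3% on plate 5 (68.6% ± 8.22, SD, n = 15 plates). GATAe was detected in 89 cells (11%, 8.93 to 13.4) and on each of the 15 plates. Its share per plate ran from 3.23% on plate 3 over a median of 10% to 21.2% on plate 6 (10.9% ± 5.14, SD, n = 15 plates). The plate ranges of the 2 genes did not overlap. srp cells had a median depth of 867444 reads, against 529045 in cells without srp, and GATAe cells had 688542, against 787444 in cells without GATAe. When cells were thinned to 256773 reads each, which left out 81 shallower cells, srp was found in 67.3% and GATAe in 9.34% of them.

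Few cells had 1 to 9 reads of either gene, while read counts from 10 upward were graded. srp had 0 reads in 24.4% of cells, 1 to 9 reads in 6.43% and 100 or more in 46.5%, with a maximum of 4978. GATAe had 0 reads in 86% of cells, 1 to 9 reads in 2.97% and 100 or more in 5.93%. Of the GATAe cells, 41 had 10 to 99 reads and 48 had 100 or more. The limit of 10 reads had few cells near it, since 8 cells had 10 to 12 reads of srp and 10 had 7 to 9, and for GATAe these counts were 2 and 5. In cells where it was detected, srp had a median of 236.8 CPM (interquartile range 107.7 to 388.9) and GATAe a median of 132.1 CPM (67.1 to 294.8). CPM scales the reads of each cell to the same total and does not allow for transcript length. In TPM, which does, the medians of detected cells were 60.9 for srp (interquartile range 29.5 to 103.1) and 53.1 for GATAe (25.3 to 107.97), so the levels of the 2 genes overlapped almost fully where each was on.

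srp and GATAe were seldom found in the same cell. Of all cells, 66.9% had srp without GATAe, 8.65% (70 cells) had GATAe without srp, 22.1% had neither, and 2.35% (19 cells, 1.42 to 3.64) had both. Independent detection at the same overall shares would place both genes in 61.6 cells, or in 61.1 when computed plate by plate. The count was below that expectation on 15 of 15 plates. srp was detected in 21.3% of GATAe cells (13.4 to 31.3), against 75.1% of cells without GATAe (71.8 to 78.3).

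This separation was seen at each read limit tried. A single read sufficed for both genes in 36 cells, where 85.5 would be expected. At 50 reads the count was 6 against 34.5, and at one thinned depth it was 10 against 45.8. Only 1 cell had 100 reads of both. Of the srp cells without GATAe, 99.4% had not a single GATAe read and 3 cells had 1 to 9. Of the 70 GATAe cells without srp, 60 had no srp read and 10 had 1 to 9.

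The phi coefficient of the 2 detections, was -0.36 over all cells that passed. With detections as frequent as these, it would have been -0.53 if no cell had both genes. Among the 7518 genes with a phi value against srp, GATAe ranked 31 from the lowest, and the lowest was forkhead (fkh), a regulator of gut development, at -0.47. Among the same genes against GATAe, srp ranked 20 from the lowest, and the lowest was the collagen-binding matrix protein SPARC at -0.55. The lowest value a gene can reach depends on how many cells have it, so these ranks set genes of unlike floors side by side. Detection depends on the depth of each library, which both genes share, and phi is given as a description.

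**Figure D2:**
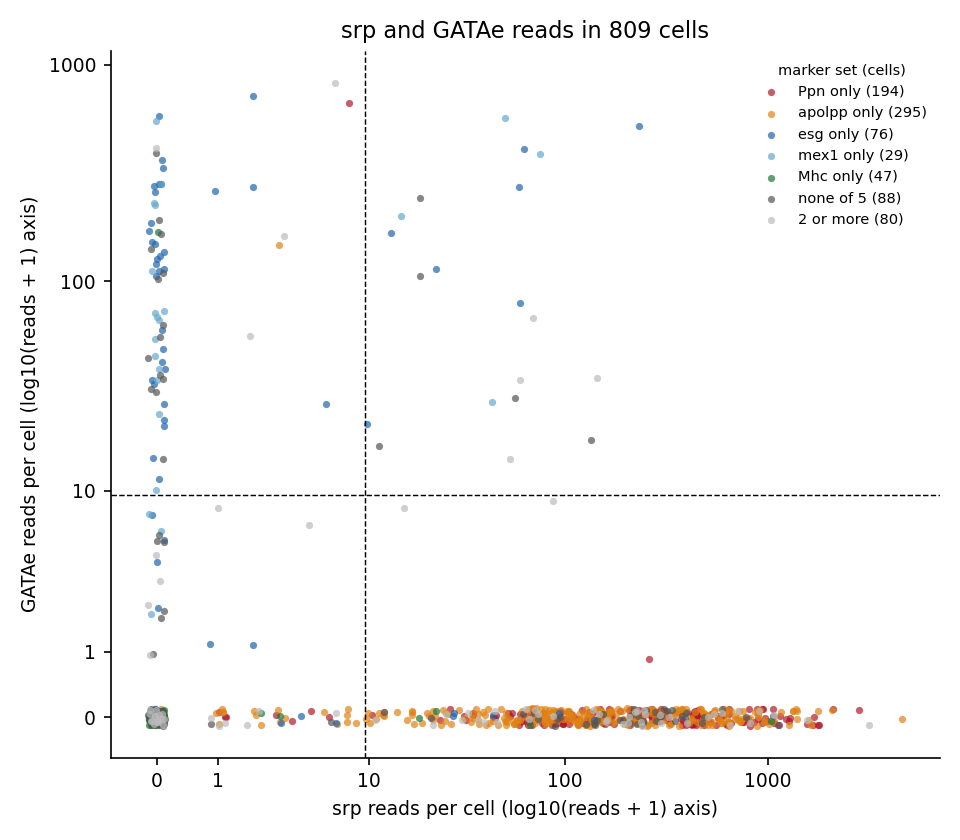
Reads of srp (x axis) and GATAe (y axis) in each cell that passed, on log10(reads + 1) axes with a small random shift, coloured by which of 5 marker genes the cell had; the number of cells of each marker set is in the legend. Dashed lines mark 10 reads. Most cells lie along one axis or the other, and 19 lie in the upper right corner.

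The 19 cells with both genes had less srp than other srp cells and a usual amount of GATAe. Their srp level ran from 11.7 CPM over a median of 70.2 CPM to 445.1 CPM, against a median of 240.8 CPM in srp cells without GATAe. Their GATAe level ran from 17.6 CPM over a median of 154.3 CPM to 876 CPM, against a median of 130.9 CPM in GATAe cells without srp. GATAe reads outnumbered srp reads in 12 of the 19. By their other genes these cells sat with the GATAe cells, since 13 had escargot (esg) or mex1 and 13 had fkh, while 1 had Ppn and apolpp. That cell, on plate 17, also had Mhc and the other contractile muscle markers, 7 of 7. The 19 cells came from 10 plates, with 5 on plate 5, and their median depth was 644682 reads, against 880948 in srp cells without GATAe and 689098 in GATAe cells without srp. No doublet caller was run, and the part of wells with more than 1 cell in these counts was not tested.

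The other GATA genes and ush differed in how they met srp and GATAe. pnr was detected in 25.6% of cells (22.6 to 28.7). Of pnr cells, 83.6% had srp (77.8 to 88.4), against 64.3% of cells without pnr (60.3 to 68.1). pnr and GATAe met in 1 cell, where 22.8 would be expected, and the count was below expectation on 15 of 15 plates. Of pnr cells, 0.483% had GATAe (0.0122 to 2.66), against 14.6% of cells without pnr (11.9 to 17.7). Of cells with ush, the Friend-of-GATA partner, 86.9% had srp (81.99 to 90.9), against 61.6% of cells without ush (57.4 to 65.6). GATAe was in 6.56% of ush cells (3.79 to 10.4), against 12.9% of cells without ush (10.3 to 15.97), and these intervals overlapped narrowly. GATAe and ush met in 16 cells, where 26.8 would be expected, and the count was below expectation on 15 of 15 plates. grain (grn), a GATA gene known from axon guidance and epithelial development, was rare, with 12 of its 19 cells among GATAe cells where 2.09 would be expected, and 3 among srp cells where 13.2 would be expected. GATAd was less divided, with srp in 61.8% of GATAd cells (53.7 to 69.4), against 71.01% of cells without GATAd (67.4 to 74.5), intervals that overlapped. GATAe was in 19.7% of GATAd cells (13.8 to 26.8), against 8.90% of cells without GATAd (6.82 to 11.3).

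The cells were then grouped by 5 marker genes, each cell counted in a set only when it had 10 reads of that marker and fewer than 10 of the other 4. Papilin (Ppn), a matrix protein of hemocytes, gave 23.98% of the cells. apolpp, which encodes the lipoprotein made by the fat body, gave 36.5%. esg, a repressor kept in progenitor cells such as those of the gut, gave 76 cells (9.39%). mex1, a gene of the absorptive midgut, gave 29 (3.58%), and Mhc gave 47 (5.81%). No marker was detected in 88 cells (10.9%), and 80 (9.89%) had 2 or more. Other genes of each marker list were detected in the sets to different degrees. In Ppn-only cells the other hemocyte genes ran from Hml and crq, both at 22.7%, to vkg at 98.97%. The hemocyte-list genes Col4a1, vkg and Glt, which encode matrix proteins, were also in 97.6%, 97.3% and 96.9% of apolpp-only cells, while Pxn was in 96.4% of Ppn-only and 0.678% of apolpp-only cells. In apolpp-only cells the other fat body genes ran from plin1 at 74.2% to Adh at 96.9%. The other contractile genes were in 87.2% to 93.6% of Mhc-only cells, sna and Sox100B in 82.9% and 59.2% of esg-only cells, and the other midgut genes in 17.2% (alphaTry) to 62.1% (Itgbn) of mex1-only cells.

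srp belonged to the Ppn and apolpp cells. It was detected in 95.4% of Ppn-only cells (91.4 to 97.9) and in 89.2% of apolpp-only cells (85.03 to 92.5). Mhc-only cells, in which neither GATA gene is known to act, gave 4 of 47 (8.51%, 2.37 to 20.4), or 3 of 44 without plate 17 (6.82%, 1.43 to 18.7), at a median depth of 495210 reads, against 863394 reads in Ppn-only and 934079 reads in apolpp-only cells. At one thinned depth the shares were 96.1% of Ppn-only, 82.1% of apolpp-only and 7.32% of Mhc-only cells. The share in esg-only cells was 14.5% (7.45 to 24.4) and in mex1-only cells 13.8% (3.89 to 31.7), and both intervals overlapped that of Mhc-only cells. Of the 560 srp cells, 87.7% had Ppn or apolpp. These markers were common, with Ppn in 28.2% and apolpp in 41.8% of all cells.

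GATAe belonged to the esg and mex1 cells. It was detected in 40 of 76 esg-only cells (52.6%, 40.8 to 64.2) and in 19 of 29 mex1-only cells (65.5%, 45.7 to 82.1). Thinned to one depth, the shares were 50.8% and 57.7%. In Mhc-only cells it was detected in 1 of 47 (2.13%, 0.0539 to 11.3). That cell was on plate 17, and without this plate the count was 0 of 44, which allows a share of up to 6.82%. It was detected in 1 Ppn-only cell (0.515%) and in 1 apolpp-only cell (0.339%), although these cells were the deeper ones. Of the 89 GATAe cells, 66 (74.2%) had esg or mex1. Over all cells, esg was in 11.6% and mex1 in 4.94%. The intervals of esg-only and mex1-only cells overlapped, so the order of these sets was not resolved.

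**Figure D3:**
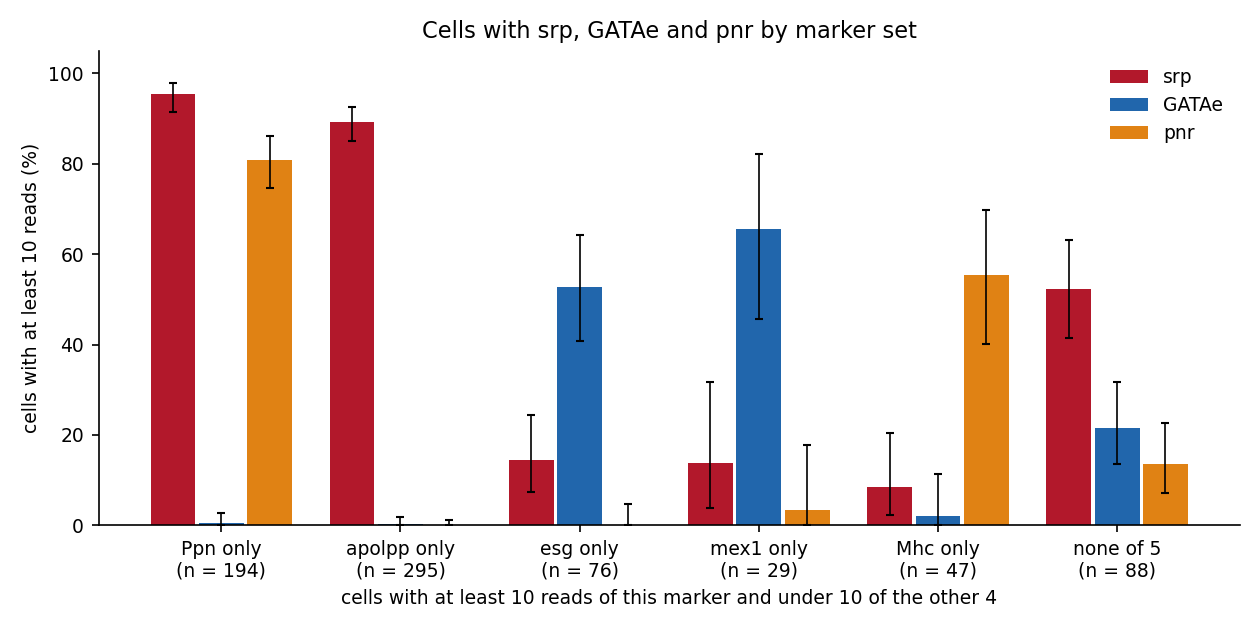
Share of cells (%) with at least 10 reads of srp (red), GATAe (blue) and pnr (orange) in cells with only Ppn, apolpp, esg, mex1 or Mhc, and in cells with none of these 5; error bars are exact 95% intervals for counting error. srp stands at 95.4% and 89.2% in Ppn-only and apolpp-only cells, GATAe at 52.6% and 65.5% in esg-only and mex1-only cells, and pnr at 80.9% in Ppn-only and 55.3% in Mhc-only cells.

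Levels followed the same order. In Ppn-only cells srp had a lower quartile of 164.2 CPM, a median of 292.2 CPM and an upper quartile of 430.2 CPM, and in apolpp-only cells the same quartiles were 54.6, 165.98 and 320.8 CPM. The median was 0 CPM in esg-only, mex1-only and Mhc-only cells. Averaged within plates, srp was at 319.7 ± 81.7 CPM in Ppn-only cells and at 219.6 ± 82.1 CPM in apolpp-only cells (SD, n = 15 plates). The difference of Ppn-only minus apolpp-only cells was 100.1 ± 121.2 CPM and positive on 12 of 15 plates, a mean within its own plate-to-plate SD. Ribosomal RNA took a median of 35.8% of reads in Ppn-only cells and 42.02% in apolpp-only cells, and with these reads left out the difference was 126.7 ± 175.7 CPM and positive on 11 of 15 plates.

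GATAe levels varied more among esg-only cells than the median shows. The quartiles in esg-only cells were 0, 38.03 and 258.4 CPM with a maximum of 1088 CPM, and in mex1-only cells 6.53, 52.8 and 122.03 CPM with a maximum of 422.6 CPM. Among cells with GATAe detected, the median was 239.99 CPM in esg-only cells and 95.7 CPM in mex1-only cells. The highest value of all, 1525 CPM, was in the single Mhc-only GATAe cell of plate 17.

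**Figure D4:**
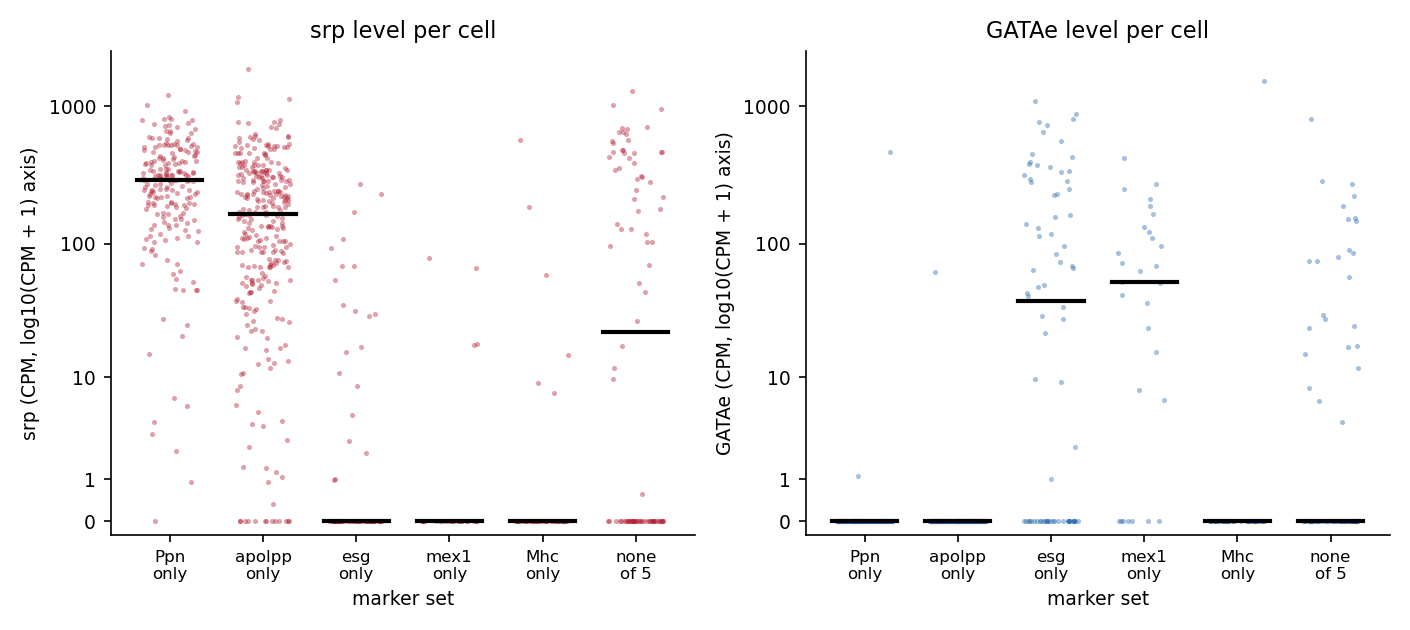
CPM of srp (left) and GATAe (right) in each cell of 6 marker sets, on log10(CPM + 1) axes; points are cells and black bars are medians. The srp medians are 292.2 CPM in Ppn-only and 165.98 CPM in apolpp-only cells and 0 CPM in esg-only, mex1-only and Mhc-only cells, and the GATAe medians are 38.03 CPM in esg-only and 52.8 CPM in mex1-only cells.

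Cells with Mhc gave a higher srp share when other markers were allowed. Of all Mhc cells, 40 had srp (36.7%, 27.7 to 46.5) and 4 had GATAe (3.67%, 1.01 to 9.13). Of these Mhc cells, 55 also had apolpp or Ppn, and 34 of those (61.8%) had srp. Plate 17 held 21 of the 40 srp cells and 3 of the 4 GATAe cells. Without plate 17, 24.7% of Mhc cells had srp and 1.30% had GATAe.

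pnr separated the Ppn cells from the apolpp cells, although both had srp. pnr was detected in 80.9% of Ppn-only cells (74.7 to 86.2) and in 0% of apolpp-only cells, which allows a share of up to 1.02%. On single plates the share in Ppn-only cells ran from 60% over a median of 81.8% to 100%, and in apolpp-only cells it was 0 on each plate. At a limit of 1 read, 87.6% of Ppn-only and 0.339% of apolpp-only cells had pnr. pnr was also present in 26 of 47 Mhc-only cells (55.3%, 40.1 to 69.8, and 25 of 44 without plate 17), 3 of them with srp, and in 0 of 76 esg-only cells, which allows up to 3.95%. In Ppn-only cells srp and pnr were found together in 77.8%, srp without pnr in 34 cells, pnr without srp in 6 and neither in 3. ush followed pnr in direction, at 64.4% of Ppn-only and 20.3% of apolpp-only cells, with a difference of 45.1 ± 16.3 percentage points over plates (SD, n = 15 plates, positive on 15).

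The Ppn and apolpp cells also differed in which srp transcripts were counted. Transcript values are estimates, since most exons are shared and kallisto divides shared reads by likelihood. srp-RD or srp-RE reached 10 reads in 80 Ppn-only srp cells (43.2%, 35.99 to 50.7), against 25 apolpp-only srp cells (9.51%, 6.25 to 13.7). Their mean part of srp reads was higher in Ppn-only cells on 15 of 15 plates, by 16.4 ± 7.47 percentage points (SD, n = 15 plates). srp-RG, which starts at the same distal exon but whose last exon begins further downstream (16002871 in place of 16002407), went the other way, with 50 Ppn-only srp cells (27.03%, 20.8 to 34.03), against 52.5% of apolpp-only srp cells (46.2 to 58.6). For srp-RG the difference of Ppn-only minus apolpp-only cells was -10.0 ± 9.81 percentage points, and it was positive on 3 of 15 plates.

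The difference persisted among cells with at least 100 srp reads, where 51.1% of Ppn-only and 11.7% of apolpp-only cells had srp-RD or srp-RE, and 28.4% of Ppn-only and 70.2% of apolpp-only cells had srp-RG. All 4 transcripts with distal exons together made up a mean of 48.3% of srp reads in Ppn-only and 37.2% in apolpp-only cells, higher in Ppn-only cells on 14 of 15 plates. Reads of lncRNA:CR44133 would add to this sum, and their part was not tested.

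srp also has a pair of alternative internal exons. A shorter exon (16000613 to 16000785) is used by srp-RB and srp-RE and a longer exon (16001189 to 16001406) by the other counted transcripts. Alternative splicing of srp is known to give a protein with both zinc fingers and a protein with the C-terminal finger alone. The shorter exon took a mean of 49.2% of srp reads in Ppn-only cells and 46.8% in apolpp-only cells. Over plates the difference of Ppn-only minus apolpp-only cells was 1.31 ± 12.4 percentage points and positive on 8 of 15, within the spread between plates.

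**Figure D5:**
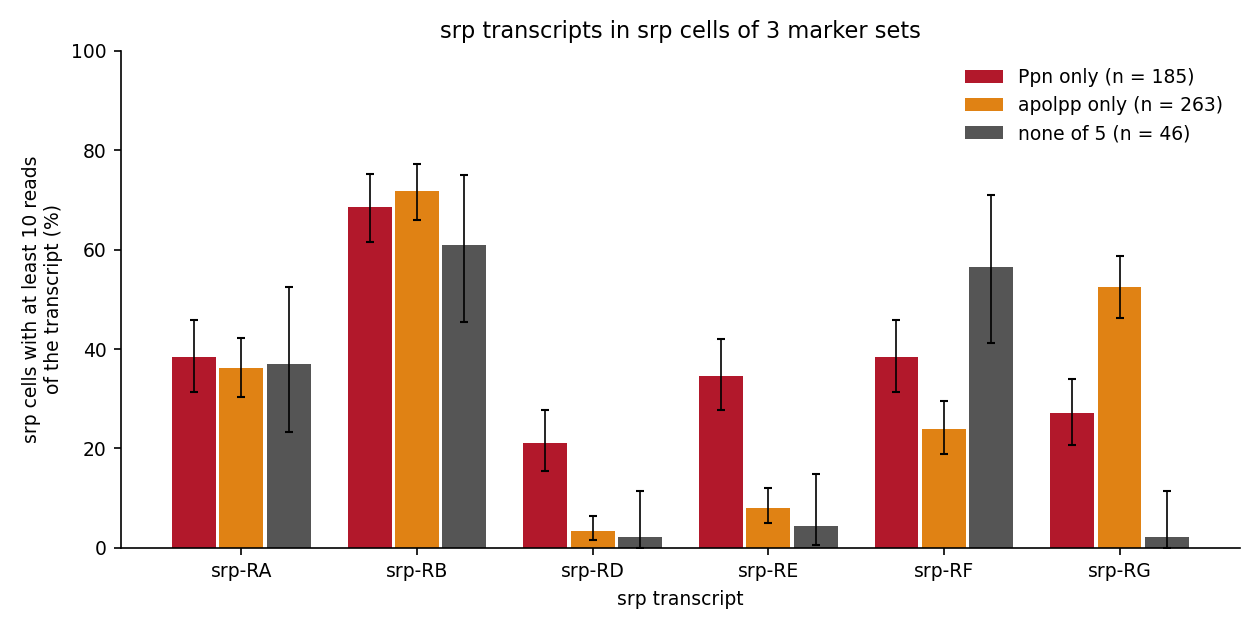
Share of srp cells (%) with at least 10 estimated reads of each srp transcript, in Ppn-only (red), apolpp-only (orange) and unmarked (grey) cells; error bars are exact 95% intervals for counting error. srp-RA and srp-RB stand at like heights in the 3 sets, srp-RD and srp-RE are highest in Ppn-only cells, srp-RG in apolpp-only cells (52.5%), and srp-RF in unmarked cells (56.5%).

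In the few srp cells that had only esg, srp-RF was the usual transcript, with 10 reads in 8 of 11 cells, and srp-RA or srp-RB reached 10 reads in 3. srp-RF starts within the span of lncRNA:CR44133. The part of that RNA in srp-RF reads, here and in unmarked cells, was not tested. Of GATAe transcripts, GATAe-RA, which starts inside the gene, reached 10 reads in 65 of 89 GATAe cells (73.03%, 62.6 to 81.9), and GATAe-RB or GATAe-RC, which start upstream, in 36 (40.4%, 30.2 to 51.4). GATAe-RA was found in 30 of 40 esg-only and 16 of 19 mex1-only GATAe cells.

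Marker and regulator lists gave the wider setting of the 2 genes. These lists include the genes that formed the marker sets: Ppn (hemocyte), apolpp (fat body), mex1 (midgut), esg (progenitor) and Mhc (contractile muscle). The list counts below therefore partly repeat what the marker sets showed. All lists were compared between the cells with srp and no GATAe and the 70 cells with GATAe and no srp, as shares of cells with the gene and without a test. Over all 7528 genes found in at least 20 cells, 50.4% had the higher share in srp cells and 49.5% in GATAe cells, and the 95% intervals of the shares were apart, in either direction, for 28.5%. Of 12 hemocyte genes, 11 had the higher share in srp cells and 12 had intervals apart. Among them were the matrix collagen vkg (91.3% of srp cells and 4.29% of GATAe cells), the peroxidasin Pxn (36.04% and 1.43%) and the phagocytosis receptor NimC1 (22.9% and 0%, where 0 of 70 cells allows a share of up to 4.29%). The exception was the scavenger receptor croquemort (crq), at 12.9% of srp cells and 27.1% of GATAe cells. Of 5 fat body genes, 5 were higher in srp cells with intervals apart, for example the lipid droplet gene plin1 at 43.3% and 0%.

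The endoderm regulators, midgut genes and progenitor genes gave the opposite picture, with 4 of 4, 5 of 5 and 3 of 3 higher in GATAe cells and intervals apart. fkh was in 1.48% of srp cells and 71.4% of GATAe cells, defective proventriculus (dve), a midgut homeodomain factor, in 2.40% and 42.9%, labial (lab), the Hox gene of the midgut, in 2.59% and 20.0%, and caudal (cad), a factor of the hindgut and posterior midgut, in 4.25% and 38.6%. Among these regulators lab had added primers as a Hox gene, so its shares are not on the same footing as those of the others. Of the blood cell regulators gcm, gcm2 and lozenge (lz), only lz was analysed here, and 8 of its 9 cells were srp cells without GATAe, where 6.02 would be expected. Its intervals in srp and GATAe cells overlapped. Contractile muscle genes were no feature of either side: at least 3 of 7 were detected in 6.28% of cells with srp and no GATAe and in 0 of 70 with GATAe and no srp, against 39.1% of cells with neither.

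The genes most like srp in which cells had them were CG8157 (phi 0.70), Idgf2 (0.68), Tig (0.68), Idgf6 (0.67), CG31777 (0.66), Glt (0.65), Idgf1 (0.65), vkg (0.63), CG34331 (0.62) and CG3829 (0.62), by phi over all cells that passed. Idgf1, Idgf2 and Idgf6 encode secreted chitinase-like factors, and Tig, Glt and vkg matrix proteins. Each of the 10 was detected in 86.6% to 98.97% of Ppn-only and 77.97% to 98.3% of apolpp-only cells. For GATAe the nearest genes were CG5096 (phi 0.61), CG4781 (0.61), CG7702 (0.59), CG18480 (0.56), CG45060 (0.55), fkh (0.55), scb (0.54), CG11453 (0.53), Tsp29Fb (0.52) and Itgbn (0.51). scb and Itgbn encode an alpha and a beta integrin subunit, and Itgbn is known from the midgut. Of the cells with each of the 10 genes nearest to GATAe, 46.7% to 63.8% had GATAe, against 11% of all cells. Of the cells with each of the 10 nearest to srp, 88.6% to 93.9% had srp, against 69.2% of all cells. These genes were picked for their high phi with srp or GATAe over the same cells. Shares above those of all cells therefore follow from that choice and are no separate result.

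Cells with srp and none of the 5 markers numbered 46, came from all 15 plates and were not low in srp, with a median of 350.7 CPM, against 231.2 CPM in all other srp cells. They were chosen for lacking Ppn and apolpp. Of the other hemocyte-list genes, 12 of the 46 had drpr, 9 had Col4a1, 6 had vkg and 5 had Glt, and 7 detected at least 3 of the 12 genes of that list. Of the fat body genes, 14 had FASN1 and 5 had Adh, and 2 detected at least 3 of the list. The gut regulator fkh was in 8 of the 46, and GATAe in 5. For comparison, fkh was in 1.48% of all srp cells without GATAe, and GATAe in 3.39% of all srp cells. Of the 28 unmarked cells with neither GATA gene, 14 had drpr and 12 had fkh. What the 46 cells had was chosen for description after the values were seen. knot (kn), a factor known from the lymph gland and from muscle patterning, and odd skipped (odd), known from the lymph gland and pericardial cells, were each detected in 22 of 46 (47.8%, 32.9 to 63.1), against 1.56% and 3.70% of the other srp cells and 1.61% and 3.61% of the cells without srp. Both were present in 18 of the 46 cells. zfh1, a repressor of the mesoderm and its blood lineage, was in 78.3% of these cells (63.6 to 89.1), against 24.1% of cells without srp. Other srp cells together gave 75.5%, but Ppn-only cells gave 97.4% (94.1 to 99.2) and apolpp-only cells 61.4% (55.5 to 66.9). Of the other genes looked at, ham was in 50% of the 46 and et in 43.5%, against 33.5% and 43.97% of the other srp cells. Among the srp transcripts of the unmarked cells, srp-RG reached 10 reads in 1 of 46 (2.17%, 0.055 to 11.5), below the intervals of both Ppn-only and apolpp-only srp cells. srp-RD or srp-RE did so in 2 (4.35%, 0.531 to 14.8), an interval below that of Ppn-only cells that overlapped that of apolpp-only cells. srp-RF did so in 26 (56.5%, 41.1 to 71.1), an interval above that of apolpp-only cells (18.9 to 29.6) that overlapped that of Ppn-only cells (31.3 to 45.8). The 46 cells had a median depth of 713470 reads. Only 4 plates held 5 or more of them, and their transcript shares were not compared over plates. The markers used here give them no cell type name.

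Cells with GATAe and none of the 5 markers numbered 19, of which 16 had fkh and 5 also had srp.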

How the data were processed

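Single cells from 15 plates were analysed as 1 sample, since the labels give 1 group and no animal. Per the submitters' processing notes, the authors used kallisto 0.43.0 and R 3.5.1 with BDGP6. They deposited estimated counts per gene in whole numbers, for genes with at least 10 reads in at least 5 cells, and estimated counts and TPM per transcript for each cell. srp and GATAe transcript sums lay within 0.51 reads of the gene table in 837 of 837 cells. Of 30651 transcripts, 30280 matched the Ensembl release 115 annotation of BDGP6, which gave coordinates. The authors' TPM was summed to genes. CPM was computed here from all gene reads of a cell.

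Of 837 cells, 809 passed. srp was detected in 560 of these and GATAe in 89 (541 with srp and no GATAe, 179 with neither). The sets held 194 Ppn-only (185 with srp, 157 with pnr), 295 apolpp-only (263 with srp), 76 esg-only, 29 mex1-only and 47 Mhc-only cells, and 109 cells had Mhc. Shares carry exact 95% intervals. The expectation under independent detection was the product of the overall shares. Thinning drew 256773 reads per cell without replacement, the 10th percentile of depth, and left out 81 cells. The phi coefficient used genes in at least 20 cells, and plate values needed 5 cells.

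Scripts were tested on simulated data and run in Python 3.11.15 with numpy 2.4.6, pandas 2.3.3 and scipy 1.17.1. The genes and lists were chosen with earlier results of these data known. A fixed rule named the markers, the lists and the 10 most similar genes. pnr within marker sets, transcript use and unmarked cells were taken up after values were seen. gcm, gcm2, hkb, Fbp1, Lsp2 and betaTry were not analysed here, and no promoter or protein sequence is shown.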

Additional observations from a re-analysis of the deposited data

Results flagged for a closer look

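The 28 cells that did not have 500 genes with 10 reads took no part in the comparisons, yet srp was detected in 8 of them (28.6%, 13.2 to 48.7) and GATAe in 2 (7.14%, 0.877 to 23.5). The median depth of these cells was 393572 reads.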

How the results depend on the processing

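Each of the 9 planned shares was recomputed with other settings and leaving out each plate in turn, and 21 of these values left the 95% interval of the share. A limit of 1 read moved cells with srp to 75.6% and with GATAe to 13.97%, GATAe cells with srp to 31.9%, Ppn cells with srp to 93.9%, apolpp cells with srp to 94.97%, esg cells with GATAe to 60.6%, mex1 cells with GATAe to 72.5% and Mhc cells with GATAe to 9.17%. A limit of 50 reads moved cells with srp and GATAe to 59.5% and 7.17%, GATAe cells with srp to 10.3%, Ppn, apolpp and Mhc cells with srp to 82.02%, 72.5% and 27.5%, and esg and mex1 cells with GATAe to 34.04% and 32.5%. Thinning moved apolpp cells with srp to 81.6%. Leaving out cells with any of the other 4 markers moved Ppn cells with srp to 95.4% and Mhc cells with srp to 8.51%, and a limit of 100 Mhc reads moved the share of Mhc cells with srp to 17.2%. Leaving out single plates gave 24.7% to 38.5% for Mhc cells with srp, lowest without plate 17, and 1.30% to 4% for Mhc cells with GATAe, lowest without plate 17. The other 7 shares stayed inside their intervals with any plate left out. In CPM without ribosomal RNA the srp median in srp cells was 455.04 and the GATAe median in GATAe cells 211.4. No paired analysis was possible because the labels give 1 group, so no numbered replicates could be matched between groups; marker sets of that group were compared within plates instead. With 1 sample, depth and plates limit each share, and no spread between animals could be measured.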
